A study of Mus musculus with 18 samples.

Results

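The integrins and laminins of mouse embryonic fibroblasts (MEFs) are described here. They were taken as every annotated gene whose symbol names an integrin α chain, an integrin β chain from Itgb1 to Itgb8, or a laminin chain. In total 37 genes met this rule among the 51499 assembled loci of the deposited table, and 36 of them, which include 18 integrin α and 8 integrin β chains, are described. Each had 1 locus, and 17 of the 36 (12 integrins and 5 laminins) had a mean of at least 1 FPKM over the groups. FPKM is the number of fragments scaled for transcript length and for library size, so levels of different genes can be set side by side.

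RNA was sequenced from embryonic fibroblasts labelled Ago2+/+ or Ago2-/-, where Ago2 encodes the slicing Argonaute protein of RNA interference. Cells of each labelled genotype received the solvent DMSO, tunicamycin, an inhibitor of N-linked glycosylation, or 500 nM thapsigargin, an inhibitor of the calcium pump of the endoplasmic reticulum (ER). The 18 libraries form 6 groups of 3. The table holds 1 value per group, pooled by the authors over its libraries, so no value has a replicate error, no difference was tested and the depth is unknown. The age of the embryos, the number of lines behind each genotype and the part of Ago2 that was removed are stated in none of the sources read.

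Several measurements go against the labels, so that every direction below holds for the labels as deposited. The genotype labels of 4 libraries conflict, and the groups labelled Ago2+/+ are titled DCR1. Ago2 itself was low in Ago2-/- DMSO, with 5.61 FPKM, and about as low in Ago2+/+ tunicamycin, with 5.75. The other groups labelled Ago2-/- had 15.5 and 20.7 FPKM. The locus of Xist, the RNA that silences 1 X chromosome in female cells, was above 1 FPKM only in Ago2+/+ DMSO and Ago2-/- thapsigargin. Ddx3y, Eif2s3y, Kdm5d and Uty, which lie on the Y chromosome, were above 0 only in Ago2+/+ thapsigargin and Ago2-/- tunicamycin. The 6 groups thus formed 3 pairs of unlike labels: Ago2+/+ tunicamycin with Ago2-/- DMSO, Ago2+/+ thapsigargin with Ago2-/- tunicamycin, and Ago2+/+ DMSO with Ago2-/- thapsigargin. Over the 11929 loci that averaged 1 FPKM or more, Spearman's rho across loci was between 0.977 and 0.985 within these pairs and between 0.876 and 0.906 for the other 12 pairs of groups. Loci are not independent replicates, and the correlation is a description. Of the fibroblast markers, 7 of 8 had a mean of at least 1 FPKM, whereas Thy1 was listed at 0 everywhere. They summed to between 1596 and 2975 FPKM in each group, of which Vim was between 952 and 2634. Col1a1 was at 6.77 and 5.97 FPKM in Ago2+/+ tunicamycin and Ago2-/- DMSO, against 521 and 651 in Ago2+/+ thapsigargin and Ago2-/- tunicamycin. With 0.1 FPKM added, Pdgfrb, Col1a2, Pdgfra and Fn1 also ranged 12.9-fold or more. Vim ranged 2.77-fold and Col3a1 4.62-fold.

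Integrins are cell surface receptors made of an α and a β chain, and the combination decides which matrix protein is bound. Laminins are trimers of an α, a β and a γ chain and form the sheet on which basement membranes are built. All of these chains are made, folded and glycosylated in the ER, the compartment that tunicamycin and thapsigargin disturb, and fibroblasts use them to hold on to the matrix that they secrete.

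The promoters of 4 members are shown because their levels separated the groups most clearly or because they mark each of the main patterns. Each window runs from 250 bases before to 50 bases after the start of the gene in RefSeq (GRCm38.p6) and is written along the strand of the gene. Capitals mark the GC box (GGGCGG) and the E-box (CAGGTG) on either strand. The first is the promoter of Itga11 (chr9:62677605-62677904, plus strand), whose transcript was above 1 FPKM in only 1 of the 3 pairs. The second is that of Itgb7 (chr15:102231886-102232185, minus strand), a β chain that was nearly absent in the pair where Itga11 was high. The third is that of Itgb8 (chr12:119238227-119238526, minus strand), and the last is that of Itga3 (chr11:95076665-95076964, minus strand), a laminin receptor chain that was high where Itga11 was low.
Itga11: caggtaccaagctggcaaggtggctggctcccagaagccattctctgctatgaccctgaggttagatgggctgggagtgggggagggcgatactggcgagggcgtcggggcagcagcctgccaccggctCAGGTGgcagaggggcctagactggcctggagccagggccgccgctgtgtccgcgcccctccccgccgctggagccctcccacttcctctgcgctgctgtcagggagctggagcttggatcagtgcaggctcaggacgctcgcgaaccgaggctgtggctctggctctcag
Itgb7: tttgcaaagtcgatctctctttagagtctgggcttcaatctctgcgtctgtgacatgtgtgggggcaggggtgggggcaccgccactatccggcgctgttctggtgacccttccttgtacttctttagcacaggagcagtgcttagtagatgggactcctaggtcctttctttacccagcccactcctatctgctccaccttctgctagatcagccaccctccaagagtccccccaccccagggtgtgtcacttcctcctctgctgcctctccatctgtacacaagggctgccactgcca
Itgb8: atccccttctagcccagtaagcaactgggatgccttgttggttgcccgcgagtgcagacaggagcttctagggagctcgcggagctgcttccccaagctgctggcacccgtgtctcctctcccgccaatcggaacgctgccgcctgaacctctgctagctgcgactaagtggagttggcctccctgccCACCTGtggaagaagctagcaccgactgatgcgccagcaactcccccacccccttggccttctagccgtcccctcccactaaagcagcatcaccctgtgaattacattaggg
Itga3: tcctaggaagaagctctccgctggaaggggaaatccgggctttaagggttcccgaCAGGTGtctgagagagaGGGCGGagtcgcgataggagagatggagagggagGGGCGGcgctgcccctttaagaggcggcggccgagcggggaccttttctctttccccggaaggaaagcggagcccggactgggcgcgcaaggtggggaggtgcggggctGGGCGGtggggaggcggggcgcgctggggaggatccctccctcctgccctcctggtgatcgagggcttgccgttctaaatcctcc

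RefSeq held 26 such windows for 23 of the 36 members. A GC box occurred in 12 of the 26 windows (11 members), against 35.7% of all 32851 windows, and an E-box in 8, against 20.2%. The AP-1 site (TGACTCA) occurred in 2 of the 26 windows (5.20% of all windows) and the TEAD site (GGAATG) in 3 (14.7%). The CArG box, the element of serum response factor, occurred in 2 (1.63%). Itga3 held 3 GC boxes and 1 E-box in the window shown, Itga11 and Itgb8 held 1 E-box each, and Itgb7 held none of the 5 motifs. The median GC content was 58.8% in the member windows and 52.7% in all windows. A match of letters is a description and not a site of binding.

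Values below are FPKM in the order DMSO, tunicamycin, thapsigargin, first for the groups labelled Ago2+/+ and then for those labelled Ago2-/-. Ratios of groups are formed after adding 0.1 FPKM, which understates the differences of low genes.

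Among the receptors of fibronectin and other ligands with the tripeptide RGD, Itga5 and Itgav were well above the rest. Itga5, the α chain of the classical fibronectin receptor, was at 30.8, 21.5 and 57.8 FPKM under the Ago2+/+ labels and at 21.6, 51.9 and 28.0 under the Ago2-/- labels. Its highest values were therefore those of Ago2+/+ thapsigargin and Ago2-/- tunicamycin, and the highest group was 2.68 times the lowest. Itgav, the chain of the vitronectin receptors, was at 50.8, 26.2 and 33.6 FPKM, then at 25.1, 33.1 and 39.3. It was highest in Ago2+/+ DMSO, with Ago2-/- thapsigargin next. Itga2b, best known from platelets, was at 1.91, 5.94 and 1.85 FPKM and then at 7.07, 2.57 and 2.11, so that it was above 5 only in Ago2+/+ tunicamycin and Ago2-/- DMSO. Its β partner in platelets, Itgb3, did not exceed 0.666 FPKM, and Itga8 stayed at or below 0.595.

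Of the collagen receptor chains, only Itga11 separated the groups widely. Itga11, which with Itgb1 binds fibrillar collagen, was at 0.0069, 0.024 and 4.29 FPKM under the Ago2+/+ labels and at 0.0092, 7.27 and 0.0060 under the Ago2-/- labels. It was near 0 in 4 groups and above 4 in Ago2+/+ thapsigargin and Ago2-/- tunicamycin, a range of 69.5-fold that depends on the 0.1 FPKM added. The markers of smooth muscle and myofibroblasts moved with it. Their sum was 2456 and 1826 FPKM in those 2 groups and between 2.25 and 6.51 in the other 4. Acta2 made up 1644 and 1252 FPKM of it, 4 of the 5 markers had a mean of at least 1 FPKM, and Myh11, which defines mature smooth muscle, did not exceed 0.073. The part of these cells or of this state in the level of Itga11 was not tested, and in bulk RNA fewer cells of a type and less RNA per cell cannot be told apart. The loci of Itga1 and Itga10 were each shared with other genes, so their values of 14.8 to 24.1 and 13.9 to 17.6 FPKM cannot be assigned to the integrin. Itga2 did not exceed 0.406 FPKM.

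The laminin receptor chains Itga3 and Itga6 were low where Itga5 and Itga11 were high. Itga6, which pairs with Itgb1 or Itgb4, was at 39.8, 73.6 and 8.27 FPKM under the Ago2+/+ labels and at 76.8, 8.89 and 44.7 under the Ago2-/- labels. The highest group was 9.19 times the lowest, and the order of the 3 pairs had no overlap. Itga3, the main receptor chain for laminins with the α5 or α3 chain, was at 39.8, 76.2 and 21.1 FPKM and then at 63.8, 17.8 and 47.4, in the same order of pairs over a 4.26-fold range. Epithelial markers summed to 1.52 and 2.01 FPKM in the pair where both chains were highest and to at most 0.393 elsewhere. Krt8, Krt18 and Krt14 made up most of the sum in that pair. Cdh1 and Epcam were instead highest in Ago2-/- tunicamycin, where Itga3 was lowest, at 0.181 and 0.0977 FPKM. None of the 6 epithelial markers reached 1 FPKM in any group, and Itgb4, the partner of Itga6 in epithelia, did not exceed 0.152.

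Itga7, the laminin receptor chain typical of muscle, followed another order. It was at 10.1, 0.822 and 2.19 FPKM under the Ago2+/+ labels and at 0.943, 2.64 and 12.8 under the Ago2-/- labels. Ago2+/+ DMSO and Ago2-/- thapsigargin were thus high, and Ago2+/+ tunicamycin and Ago2-/- DMSO were low, with a range of 13.9-fold. Of the 3 skeletal muscle markers, only Des moved with it. The sum of the 3 was 2.95 and 2.59 FPKM in the high pair and at most 0.499 elsewhere, nearly all of it from Des. Neither Myod1 nor Myog exceeded 0.0201 FPKM, and both were highest in Ago2-/- DMSO, where Itga7 was low. The locus of Itga7 runs 2706 bases past the annotated gene over Mettl7b on the other strand. Mettl7b, counted at its own locus, was at 2.35 and 1.98 FPKM in the same pair and under 0.1 elsewhere, and its share in the value of Itga7 was not tested.

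Itgb1, the β chain shared by most matrix receptors, was the most abundant member in every group. It was at 250.6, 211.6 and 297.9 FPKM under the Ago2+/+ labels and at 223.6, 282.8 and 193.0 under the Ago2-/- labels. Its range of 1.54-fold was among the narrowest, and it made up between 79.4% and 85% of the summed β chains. Itgb5, a partner of Itgav, was at 21.7, 38.4 and 51.0 FPKM and then at 39.4, 52.7 and 20.7, and was low in Ago2+/+ DMSO and Ago2-/- thapsigargin.

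Itgb7, the β chain of lymphocyte homing receptors, had a range of 86.9-fold with 0.1 FPKM added, the widest of all members on that scale. With 0.01 FPKM added, its range was 116-fold, below those of Itga11 (454-fold) and Lama4 (188-fold). It was at 30.5, 13.6 and 0.341 FPKM under the Ago2+/+ labels and at 14.3, 0.252 and 23.7 under the Ago2-/- labels. It thus made up between 5.11% and 10.04% of the summed β chains in 4 groups and was nearly absent in Ago2+/+ thapsigargin and Ago2-/- tunicamycin. Its known partners Itga4 and Itgae did not exceed 0.130 and 0.0565 FPKM. The leukocyte markers summed to between 1.24 and 2.38 FPKM and were highest in the same pair as Itgb7, of which Cd68 carried between 1.13 and 1.82. Ptprc, which defines leukocytes, did not exceed 0.0758 FPKM and Adgre1 was listed at 0 everywhere. Itgb8, which activates latent TGF-β together with Itgav, was at 0.037, 1.997 and 0.497 FPKM and then at 1.87, 0.702 and 0.079. It was highest in Ago2+/+ tunicamycin and Ago2-/- DMSO, with a 15.3-fold range, although its mean of 0.863 FPKM was under the threshold of 1.

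**Figure D1:**
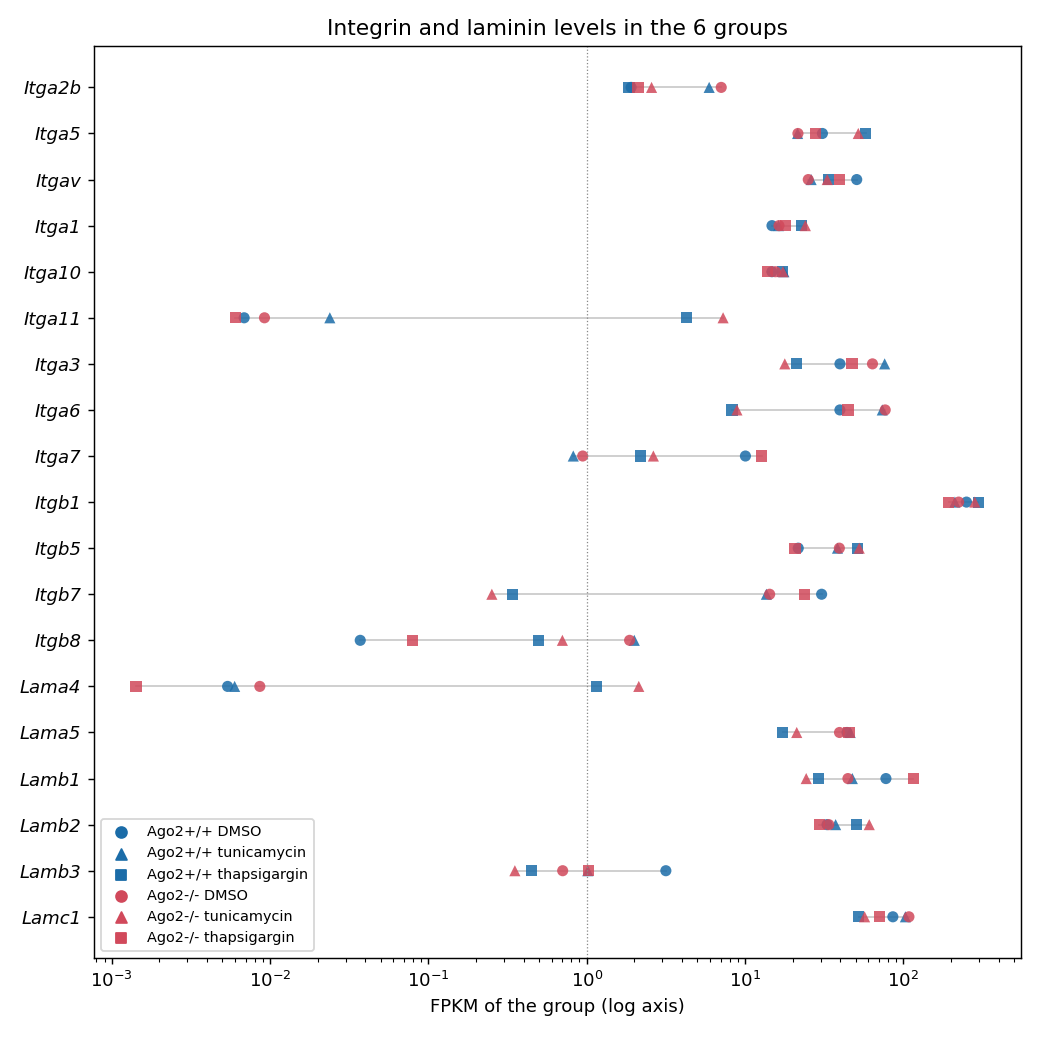
Levels of the 17 members with a mean of at least 1 FPKM and of Itgb8 and Lama4, which reached 1 FPKM in some group. Each point is the pooled FPKM of 1 group on a log axis, with colour for the labelled genotype and shape for the treatment, and the dotted line is at 1 FPKM. Itgb1 lies between 193.0 and 297.9 FPKM, whereas Itga7, Itga11, Itgb7, Itgb8 and Lama4 span more than an order of magnitude.

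Laminin α chains were represented almost entirely by Lama5. Lama5, a chain of broadly expressed laminins, was at 44.1, 46.2 and 17.3 FPKM under the Ago2+/+ labels and at 39.5, 21.2 and 45.3 under the Ago2-/- labels. It made up between 89.1% and 100.0% of the summed α chains and was lowest in Ago2+/+ thapsigargin and Ago2-/- tunicamycin. In those same groups Lama4, the chain of vascular and mesenchymal laminins, was at 1.16 and 2.13 FPKM, or 6.17% and 8.96% of the α chains, against at most 0.0086 FPKM elsewhere. Of the 4 endothelial markers, Kdr moved with Lama4 at low levels, at 0.427 and 0.308 FPKM in those groups and at most 0.0459 elsewhere. Pecam1 was instead highest in Ago2-/- DMSO, and Cdh5 and Tek in Ago2-/- thapsigargin. The sum of the 4 was 0.465 FPKM in Ago2+/+ thapsigargin and 0.424 in Ago2-/- tunicamycin, mostly from Kdr, and at most 0.185 elsewhere. None of the 4 reached 1 FPKM. The smooth muscle markers given with Itga11 were high in the groups where Lama4 was high, and the part of either marker list in its level was not tested. Lama1, Lama2 and Lama3 did not exceed 0.101, 0.322 and 0.113 FPKM.

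Lamb1 and Lamb2, the alternative β chains of common laminins, were ordered in opposite ways. Lamb1 was at 77.6, 47.6 and 29.0 FPKM under the Ago2+/+ labels and at 44.7, 24.4 and 115.3 under the Ago2-/- labels. Lamb2 was at 33.0, 37.4 and 50.8 FPKM and then at 33.8, 60.9 and 29.5. The ratio of Lamb2 to Lamb1 was accordingly 0.424, 0.784 and 1.75 under the Ago2+/+ labels and 0.757, 2.50 and 0.255 under the Ago2-/- labels. Lamb2 exceeded Lamb1 only in Ago2+/+ thapsigargin and Ago2-/- tunicamycin, where it made up 63.3% and 71.2% of the β chains. Lamb3, a chain of the epithelial anchoring laminin, was at 3.16, 1.02 and 0.449 FPKM and then at 0.705, 0.352 and 1.02. Its locus spans Hsd11b1 and G0s2 on the other strand, neither of which exceeded 0.0575 FPKM at its own locus.

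Lamc1, the γ chain of most laminins, was at 85.9, 103.1 and 52.4 FPKM under the Ago2+/+ labels and at 108.5, 56.9 and 70.3 under the Ago2-/- labels. It was highest in Ago2-/- DMSO and Ago2+/+ tunicamycin and lowest in Ago2+/+ thapsigargin and Ago2-/- tunicamycin, over a 2.07-fold range. Lamc3 did not exceed 0.210 FPKM.

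The remaining members were low throughout. Of the 19 members with a mean under 1 FPKM, 17 reached 1 FPKM in no group, and the highest value among them was the 0.666 FPKM of Itgb3. Besides those named above they include Itga9, Itgb2, Itgb6 and the leukocyte chains Itgad, Itgal, Itgam and Itgax. Of the 17 members kept, 13 were at 1 FPKM or more in all 6 groups, and Itga11, Itga7, Itgb7 and Lamb3 passed only through the groups where they were high.

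The makeup of the chains was set beside their sums. Summed integrin α chains, without the loci of Itga1 and Itga10, were between 125.0 and 204 FPKM and summed β chains between 238 and 351. Within the α chains, Itga6 made up 22.9%, 36.0% and 6.38% under the Ago2+/+ labels and 39.2%, 7.11% and 25.6% under the Ago2-/- labels. Itga5 went the other way, with 17.8%, 10.5% and 44.6% and then 11.02%, 41.6% and 16.0%. The ratio of Itga5 to Itga6 was above 5 in Ago2+/+ thapsigargin (6.98) and Ago2-/- tunicamycin (5.84) and below 1 in the other 4 groups. Laminin α chains summed to between 18.8 and 46.2 FPKM and β chains to between 79.2 and 146, so that the α chains were the scarcer in every group.

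**Figure D2:**
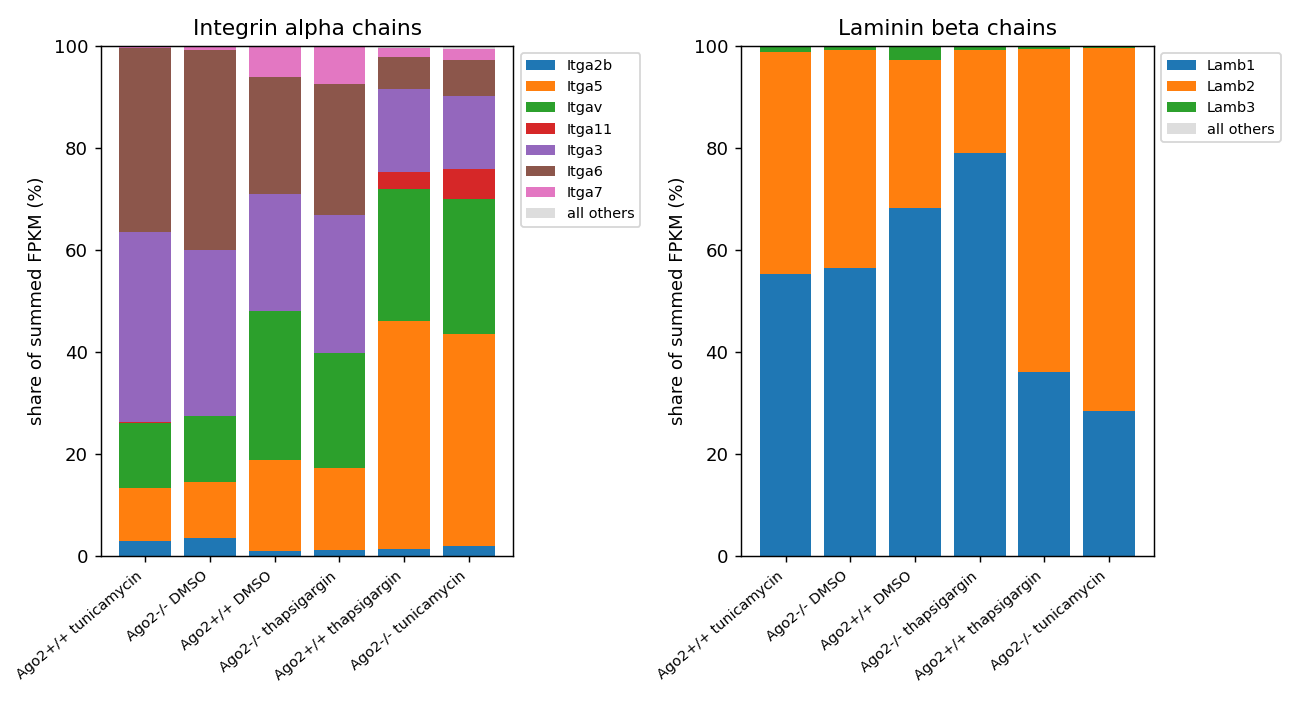
Makeup of the integrin α (without the loci of Itga1 and Itga10) and of the laminin β chains. Each bar is 1 group, ordered by the pairs of similar groups, and shows the percentage of the summed FPKM taken by each chain. Ago2+/+ thapsigargin and Ago2-/- tunicamycin have the largest shares of Itga5 (44.6% and 41.6%) and of Lamb2 (63.3% and 71.2%).

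Across the 6 groups, the members fell into a few orders that crossed the labels. The pair of highest groups was 1 of the 3 similar pairs for 15 of the 17 members, against 70.3% of all loci kept, and the exceptions were Itga10 and Lama5. The pairs were known from these same data. Among the 15 are Itga11, Itga7, Itgb7 and Lamb3, kept only through their high groups, and the shared locus of Itga1. The count is therefore a description and not a test. Itga6 was most like Itga3 (Pearson's r = 0.980 of log2 levels over 6 groups), and Lama5 was most like Itgb7 (r = 0.969). Itga6 and Itga5 were the most opposed (r = -0.995), followed by Itgb7 and Itga11 (r = -0.990), while Lamb2 and Lamb1 had r = -0.912. These values describe 6 points that form 3 near-duplicate pairs.

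**Figure D3:**
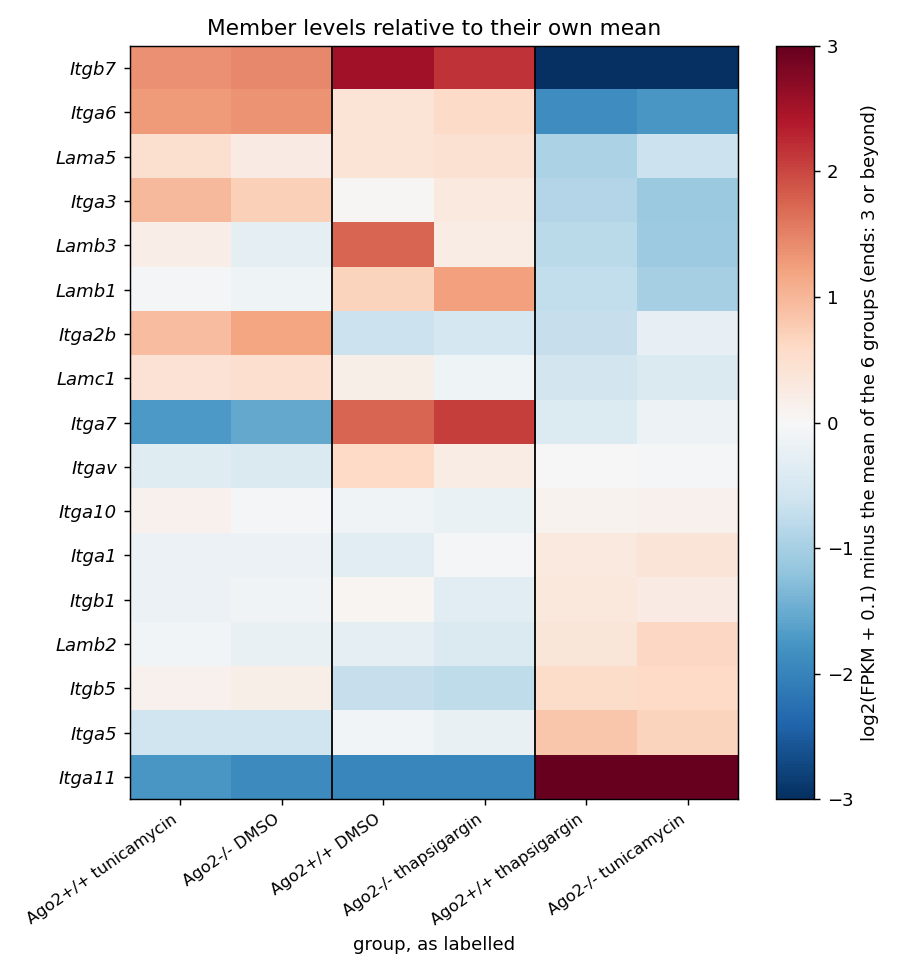
Level of each of the 17 members relative to its own mean over the 6 groups, as log2 of FPKM plus 0.1, with groups ordered by similar pairs. Neighbouring columns within each pair have like colours for nearly all members, and Itga11 and Itgb7 have opposite colours in the last pair (Ago2+/+ thapsigargin and Ago2-/- tunicamycin).

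Within the similar pairs, 1 member was at least 2-fold apart. No member was at least 2-fold apart between Ago2+/+ tunicamycin and Ago2-/- DMSO (1.44% of all 11929 loci were) or between Ago2+/+ thapsigargin and Ago2-/- tunicamycin (1.58% of loci). Between Ago2+/+ DMSO and Ago2-/- thapsigargin, only Lamb3 was (3.58% of loci), at 3.16 against 1.02 FPKM. Lamb3 was kept only through its high groups, of which Ago2+/+ DMSO is the highest. The median absolute log2 difference of the members was between 0.092 and 0.25 within the pairs and between 0.48 and 1.12 for the other 12 pairs of groups. The same median over all loci was 0.090, 0.12 and 0.17 in the 3 pairs, in the order above.

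The comparisons that the design implies were tunicamycin or thapsigargin with DMSO in each labelled genotype, and Ago2-/- with Ago2+/+ in each treatment. Members at least 2-fold apart were counted among the 17, beside the share of all 11929 loci that differed as much in the same direction. Itga11, Itga7, Itgb7 and Lamb3 were kept only through the groups where they were high. Their calls against those groups are not independent of the filter. Both stressors share 1 DMSO group per labelled genotype, and each group enters several comparisons, so the comparisons are not independent of each other. The medians given are log2 differences over the 17 members. Over all 36 members, of which 17 never reached 1 FPKM, the medians of the 7 comparisons lay between -0.16 and 0.12.

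Under tunicamycin in the groups labelled Ago2+/+, 1 of 17 members was at least 2-fold higher than under DMSO, beside 9.61% of all loci. This was Itga2b (log2 difference 1.59). Another 3 members, beside 8.29% of loci, were at least 2-fold lower, namely Itga7 (-3.46), Lamb3 (-1.55) and Itgb7 (-1.15). The median of the members was 0.14, and that of all loci was between -0.029 and 0.012 in the 7 comparisons. In the groups labelled Ago2-/-, tunicamycin went with higher Itga11 (6.08), Itga7 (1.39) and Itga5 (1.26), which are 3 of 17 members beside 11.6% of loci. Lower were Itgb7 (-5.36), Itga6 (-3.10), Itga3 (-1.83) and Itga2b (-1.43), which are 4 of 17 beside 10.3% of loci. The median of the members was 0.16, but -0.83 without the shared loci of Itga1 and Itga10.

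Thapsigargin in the groups labelled Ago2+/+ went with lower levels of more members. The members lower by at least 2-fold were Itgb7 (-6.12), Lamb3 (-2.57), Itga6 (-2.25), Itga7 (-2.15), Lamb1 (-1.42) and Lama5 (-1.35), or 6 of 17 beside 7.54% of loci. Of the 5 laminins kept, 3 were therefore lower, and the others, Lamc1 and Lamb2, were at -0.71 and 0.62. Lamb3, 1 of these 3, was kept only through its high groups, and the highest was Ago2+/+ DMSO, the comparator here. Itga11 (5.36) and Itgb5 (1.23) were higher, or 2 of 17 beside 9.27% of loci, and the median of the members was -0.60. In the groups labelled Ago2-/-, Itga7 (3.62) and Lamb1 (1.37) were higher under thapsigargin, 2 of 17 beside 8.21% of loci. Itga2b (-1.70) was lower, 1 of 17 beside 9.81% of loci, with a median of -0.043.

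The study used a p-value threshold to select transcripts that went down under stress in Ago2+/+ cells and up in Ago2-/- cells. It followed up only those found with both stressors. The pattern here is instead a 2-fold difference of pooled FPKM under 1 stressor without a test, so it is not the study's selection. At 2-fold in each, Itga7 met this pattern under tunicamycin (4.80% of loci did) and Itga7 and Lamb1 under thapsigargin (2.62% of loci). The reverse pattern was met by Itga2b under tunicamycin (4.52% of loci) and by no member under thapsigargin (4.13% of loci). Itga7 was kept only through the groups where it was high. With a pseudocount of 1 FPKM, its difference under tunicamycin in Ago2-/- was 0.90 and not 2-fold, and no member then met the pattern under tunicamycin. In each case the difference between the labelled genotypes was not tested.

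**Figure D4:**
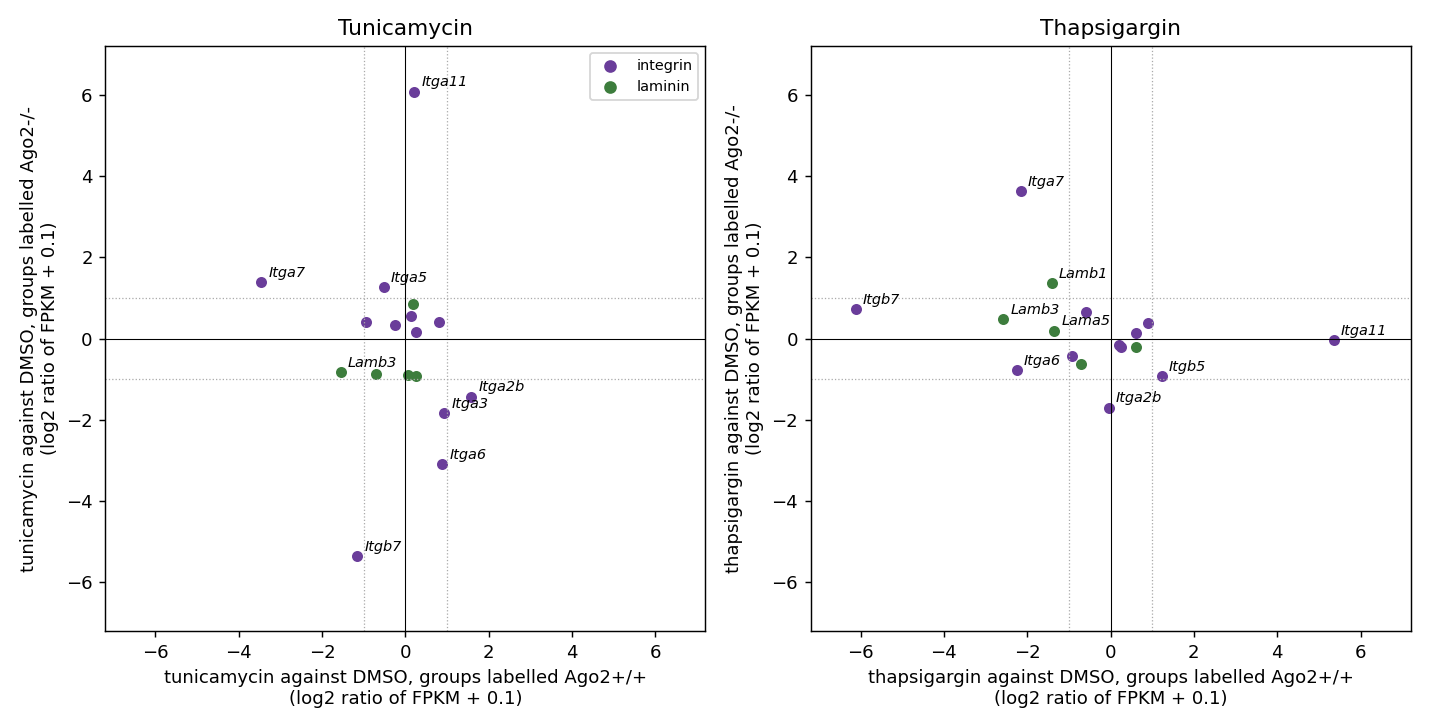
Log2 difference of each of the 17 members under tunicamycin (left) or thapsigargin (right) against DMSO, in the groups labelled Ago2+/+ (horizontal) and Ago2-/- (vertical). Points are members, dotted lines mark 2-fold, and members at least 2-fold apart on either axis are named. Itga11 lies near 0 on one axis and at 5.36 or 6.08 on the other, and Itga7 lies at the upper left in both panels.

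Between the labelled genotypes under DMSO, Itga2b (1.84) was at least 2-fold higher in Ago2-/-, 1 of 17 members beside 9.66% of loci. Itga7 (-3.28), Lamb3 (-2.02), Itgb7 (-1.09) and Itgav (-1.01) were lower, 4 of 17 beside 8.37% of loci, and the median of the members was 0.031, but -0.16 without the shared loci. Under tunicamycin, Itga11 (5.89), Itga7 (1.57) and Itga5 (1.27) were higher in Ago2-/-, 3 of 17 beside 11.6% of loci. Lower were Itgb7, Itga6, Itga3, Lamb3, Itga2b and Lama5, with log2 differences from -5.29 to -1.12, which are 6 of 17 beside 9.88% of loci. The median was -0.020, or -0.86 without the shared loci. Under thapsigargin the directions were largely the reverse. Itgb7, Itga7, Itga6, Lamb1, Lama5, Itga3 and Lamb3 were higher in Ago2-/-, with log2 differences from 1.03 to 5.75, or 7 of 17 beside 7.42% of loci. Itga11 (-5.37), Itgb5 (-1.30) and Itga5 (-1.04) were lower, or 3 of 17 beside 9.97% of loci. The median was 0.23, or 0.42 without the shared loci.

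Genes that work with the integrins and laminins were examined in 3 lists chosen with earlier results of these data known. Beside the counts below, the shares of all loci at least 2-fold higher and lower were 9.61% and 8.29% for tunicamycin and 9.27% and 7.54% for thapsigargin under the Ago2+/+ labels. Under the Ago2-/- labels they were 11.6% and 10.3% for tunicamycin and 8.21% and 9.81% for thapsigargin. Of 29 adaptors that join integrins to actin, 26 had a mean of at least 1 FPKM. Under the Ago2+/+ labels, 11 of the 26 were at least 2-fold higher and 1 lower under thapsigargin, and 3 higher and 4 lower under tunicamycin. Under the Ago2-/- labels, 7 were higher and 2 lower under tunicamycin, and 4 higher and 2 lower under thapsigargin. Tgfb1i1, which encodes the paxillin relative Hic-5, had the widest range, with 15.2, 0.0769 and 89.5 FPKM under the Ago2+/+ labels and 0.023, 74.6 and 18.3 under the Ago2-/- labels. Tns1 (tensin) and Lims2 (PINCH2), which join integrins to the cytoskeleton, were also highest in Ago2+/+ thapsigargin, at 27.9 and 3.01 FPKM. Parvb (parvin) was instead highest in Ago2+/+ tunicamycin and Ago2-/- DMSO, at 15.4 and 13.8 FPKM against at most 2.49 elsewhere.

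Of 18 partners of laminin in the basement membrane, 15 were kept. Under the Ago2+/+ labels, 3 of the 15 were at least 2-fold higher and 2 lower under tunicamycin, and 3 higher and 4 lower under thapsigargin. Under the Ago2-/- labels, 3 were higher and 2 lower under tunicamycin, and 1 higher and 3 lower under thapsigargin. The nidogens, which link the laminin sheet to collagen IV, differed from the chains that they bind. Nid1 was at 0.015, 64.7 and 48.7 FPKM under the Ago2+/+ labels and at 51.1, 53.4 and 0.0027 under the Ago2-/- labels, so it was nearly absent in 1 pair, Ago2+/+ DMSO with Ago2-/- thapsigargin. Nid2 was at 46.1 and 53.5 FPKM in Ago2+/+ thapsigargin and Ago2-/- tunicamycin and at most 0.244 elsewhere. Lamc1, the chain that carries the nidogen site, was by contrast at 52.4 FPKM or more in all groups. Bcam, a receptor for Lama5, and Sparc, a matrix protein that binds collagen, were highest in Ago2-/- tunicamycin, at 5.19 and 863 FPKM.

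Of 18 integrin ligands, 14 were kept. Under the Ago2+/+ labels, 7 of the 14 were higher and 2 lower by at least 2-fold under tunicamycin, and 9 higher and 2 lower under thapsigargin. Under the Ago2-/- labels, 8 were higher and 3 lower under tunicamycin, and 2 higher and 7 lower under thapsigargin. Spp1 (osteopontin), a ligand of the Itgav receptors, was at 256, 1214 and 16.0 FPKM under the Ago2+/+ labels and at 2015, 20.1 and 461 under the Ago2-/- labels. Postn (periostin) and Thbs2 (thrombospondin) were highest in Ago2-/- tunicamycin, at 10.1 and 6.06 FPKM, and Ctgf in Ago2+/+ thapsigargin, at 260 FPKM. Spp1 was thus lowest, and Postn, Thbs2 and Ctgf highest, in the pair where Itga5 and Itga11 were highest.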

How the data were processed

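RNA from 18 libraries in 6 groups was analysed. According to the labels and methods, the authors aligned reads to GRCm38 with HISAT2 2.1.0, assembled transcripts with StringTie 1.3.4d and quantified loci with Cuffdiff 2.2.1, after FastQC 0.11.7. The deposited FPKM is 1 value per group and locus, pooled over 3 libraries. Library scaling and strandedness are stated in none of the sources read, and without strand, genes that overlap on opposite strands cannot be told apart. The table also holds the authors' own fold changes, test statistics, p-values and q-values, which were not used. Of its 772485 rows, 18 are marked as failed, none of them of a member. Of these, 9 are rows of Fn1, which is in the lists of fibroblast markers and of integrin ligands.

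Groups follow the labels. The 4 libraries with conflicting genotype labels (3 titled DCR1 replicate 2 and 1 titled AGO2 DMSO replicate 3) stayed in the group of their title, and pooling gives no way to leave them out. Differences were log2 ratios of FPKM plus 0.1 over loci that averaged 1 FPKM or more, and 2-fold was the threshold. All group values are given for each member with such a mean, other members are given by range, and from each other list at most 4 genes with the widest range are named. Itgb8 and Lama4, which reached 1 FPKM in some group, were named after their values were seen. Members and lists were chosen with earlier results of these data known. Of the 37 genes of the rule, 1 is not reported here. Promoters came from RefSeq and gene positions from GENCODE. Python 3.11.15, pandas 2.3.3 and numpy 2.4.6 were used. Alternatives were other pseudocounts, filters, thresholds, a centred scale and loci with 1 symbol.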

Additional observations from a re-analysis of the deposited data

How the results depend on the processing

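No paired analysis was possible because the table holds 1 pooled value per group, and for the same reason no replicate could be left out. Depth is unknown, so no counting error can be given. The sign of a called difference could not change under these alternatives, because a pseudocount keeps the sign and centring shifted values by far less than 2-fold. A pseudocount of 1 FPKM and centring on the median of all loci left each of the 14 counts within 1.5 times its value. Use of the 15 members whose locus holds 1 symbol could not change the counts, because Itga1 and Itga10 were called in no comparison. With a pseudocount of 1 FPKM, single calls were lost for Itga7 (tunicamycin in Ago2-/-, 0.90, and genotypes under tunicamycin, 0.997), Itgav (genotypes under DMSO, -0.99), Itga2b (genotypes under tunicamycin, -0.96) and Lamb3 (genotypes under tunicamycin, -0.58, and thapsigargin, 0.48). A pseudocount of 0.01 FPKM left 13 of the 14 counts within 1.5 times their value, the exception being tunicamycin in Ago2+/+ (2 higher, with Itga11 at 1.01). It moved the median for thapsigargin in Ago2-/- to -0.17. Loci with 1 symbol gave medians of -0.71 (thapsigargin, Ago2+/+), -0.83 (tunicamycin, Ago2-/-), -0.16, -0.86 and 0.42 (genotypes under DMSO, tunicamycin and thapsigargin), and those for tunicamycin in Ago2-/- and for genotypes under DMSO turned sign.

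Without the filter, all 36 members entered. Medians were then -0.037 and -0.067 in Ago2+/+ (tunicamycin, then thapsigargin), and -0.16 and 0.044 between genotypes (DMSO, then thapsigargin). Counts became 4 higher and 5 lower (tunicamycin, Ago2+/+), 7 higher (thapsigargin, Ago2+/+), 7 higher and 8 lower (tunicamycin, Ago2-/-), 5 lower (thapsigargin, Ago2-/-), 5 higher (genotypes, DMSO), 6 higher (genotypes, tunicamycin) and 7 lower (genotypes, thapsigargin). A mean of at least 5 FPKM, met by 13 members, left 0 higher and 1 lower (tunicamycin, Ago2+/+), 1 higher and 0 lower (thapsigargin, Ago2-/-, median -0.17), 1 higher (thapsigargin, Ago2+/+; tunicamycin, Ago2-/-; genotypes, tunicamycin) and 0 higher and 2 lower (genotypes, DMSO). At 1.5-fold, 4 were higher and 5 lower (tunicamycin, Ago2+/+), 5 higher (thapsigargin, Ago2+/+), 8 lower (tunicamycin, Ago2-/-), 4 higher and 4 lower (thapsigargin, Ago2-/-), 4 higher (genotypes, DMSO) and 5 lower (genotypes, thapsigargin). At 4-fold, tunicamycin went with 0 higher and 1 lower in Ago2+/+ and 1 and 2 in Ago2-/-, thapsigargin with 1 higher in Ago2+/+ and 1 and 0 in Ago2-/-, and the genotype counts were 0 and 2, 1 and 3, and 3 and 1. Each change in a count follows from the change in members, pseudocount or threshold.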
